A study of Saccharomyces cerevisiae with 24 samples.

Results

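RNA polymerase I and RNA polymerase III (Pol I and Pol III) are the nuclear enzymes that make the RNA parts of the translation machinery. Here 10 genes that encode their subunits were followed, chosen by gene identifier from the 5211 genes of the deposited count table. Of these, 5 encode subunits found in Pol I only: RPA190 (YOR341W), RPA135 (YPR010C), RPA49 (YNL248C), RPA43 (YOR340C) and RPA34 (YJL148W). A further 3 are specific to Pol III: RPO31 (YOR116C), RET1 (YOR207C) and RPC31 (YNL151C). RPC40 (YPR110C) is shared by Pol I and Pol III, and RPC10 (YHR143W-A, also called RPB12) is shared by all 3 nuclear RNA polymerases. No gene of the annotation overlapped any of the 10. RPA43 (chromosome XV, positions 959202 to 960182 in build R64, minus strand) and RPA190 (960987 to 965981, plus strand) are neighbours that point away from each other, with 804 bases between their coding sequences.

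As background, Pol I transcribes the rDNA repeat into the precursor of the large ribosomal RNAs, while Pol III makes the 5S ribosomal RNA, the transfer RNAs and a few other small RNAs. In budding yeast, output of both enzymes is known to follow growth and to be held back in stress, Pol III through the repressor Maf1 and Pol I through its initiation factor Rrn3. In each enzyme the largest pair of subunits forms the active site. Rpa49 and Rpa34 form a heterodimer on Pol I that aids initiation and elongation, and Rpa43 belongs to the stalk through which Pol I binds Rrn3. Rpc31 belongs to a Pol III heterotrimer with Rpc82 and Rpc34 that acts in initiation. Rpc40 pairs with Rpc19 in the assembly core of Pol I and Pol III, and Rpc10 is a small zinc-binding subunit.

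The cells were Saccharomyces cerevisiae, either zuo1Δ, which lacks the ribosome-bound J-domain chaperone Zuo1, or wild type, both in the BY4741 background. Cultures growing at 30 °C in synthetic complete medium with glucose were treated with 0.25 mM hydrogen peroxide (H2O2) for 30 min, brought to 37 °C for 45 min by adding warm medium (heat), or harvested before any stress (unstressed). From each genotype and condition, poly(A)-selected mRNA was sequenced, and so were ribosome footprints, the stretches of message that ribosomes shield from nuclease. Each of the 12 groups held 2 biological replicates, so there were 24 libraries. The labels do not say how many independent zuo1Δ isolates were used.

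Library totals were 7810893 to 122213415 reads for mRNA and 1686930 to 15788345 for footprints, and the 10 genes had at least 43 and 75 reads in every library of these assays. All 10 passed the low-count filter in both assays. No ZUO1 reads were counted in any zuo1Δ library, whereas wild-type libraries had 213.6 to 363.3 ZUO1 CPM (counts scaled to a fixed library total) for mRNA and 771.6 to 1180 CPM for footprints. Markers of the a mating type of BY4741 (6 genes) were high throughout, at a summed 2040 to 2984 in zuo1Δ and 771.4 to 1995 in wild type for mRNA and 1344 to 1734 in zuo1Δ and 965.6 to 1738 in wild type for footprints. The 1 alpha-cell marker in the table reached at most 16.54, and the 2 meiosis markers summed to 39.91 to 84.51 in zuo1Δ mRNA and 1.30 to 4.23 in wild-type mRNA, and to 12.2 to 25.0 in zuo1Δ footprints and 7.17 to 17.48 in wild-type footprints; the part of these markers in the results below was not tested. In 3 stressed zuo1Δ libraries the response to the labelled stress was not seen: the median of 65 genes picked for their rise with that stress in wild-type footprints did not exceed its top value among unstressed libraries. On a log2 scale the H2O2 markers had medians of 2.52 and 2.42 in wild-type H2O2 footprints, high by choice because they were picked there. For zuo1Δ footprints labelled H2O2, the marker median was 0.04 in replicate 1 and 1.499 in replicate 2, against up to 0.58 in unstressed ones. The other such libraries were the zuo1Δ mRNA libraries labelled H2O2 replicate 2 (0.18, against up to 0.46 unstressed) and labelled heat replicate 1 (-0.03, against up to 0.33). In these mRNA libraries the markers of the opposite stress stood higher, the heat markers at 0.68 in the one labelled H2O2 and the H2O2 markers at 1.10 in the one labelled heat. In zuo1Δ footprints labelled H2O2 replicate 1 the heat markers stood at 0.55, against up to 0.43 unstressed. They stood at 0.88 in replicate 2 and at 0.92 and 0.81 in wild-type H2O2 footprints. Tests of the members that use the 3 zuo1Δ libraries without their labelled response are also given without those libraries.

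Levels between genes were compared as CPM, scaled by TMM factors, per kilobase of coding length, which runs from 213 bases for RPC10 to 4995 for RPA190. In unstressed footprints the 10 genes fell into tiers by enzyme in both genotypes. In zuo1Δ, RPC40 at 292 ± 41.5 and RPC10 at 265 ± 69.0 CPM per kb stood above the means of the Pol I genes at 189 to 223 and of the Pol III genes at 61.7 to 70.2 (mean ± SD, n = 2). In wild type the shared genes among the 10 were highest, RPC40 at 354 ± 75.0 and RPC10 at 280 ± 44.7 CPM per kb (mean ± SD, n = 2). The Pol I subunits came next, RPA135 at 236 ± 66.6, RPA190 at 201 ± 23.3, RPA49 at 180 ± 41.1, RPA43 at 176 ± 32.8 and RPA34 at 173 ± 20.1. The replicates of RPC40 and RPC10 overlapped, as did those of RPC10 and RPA135 and of each Pol I gene and the next in this order, but RPA135, at 189 and 283 CPM per kb, did not overlap RPA34, at 159 and 187. Pol III subunits were lowest, RPC31 at 97.8 ± 15.6, RET1 at 69.7 ± 7.24 and RPO31 at 67.6 ± 11.3 CPM per kb. RPC31 did not overlap RPA34 above it or RET1 below it, whereas RET1 and RPO31 overlapped.

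Within an enzyme the footprint densities lay close together in every library. The highest of the 5 Pol I genes exceeded the lowest by 1.14 to 1.52 times, and the highest of the 3 Pol III genes exceeded the lowest by 1.11 to 1.91 times, over the 12 footprint libraries.

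The mRNA levels of the same genes were far apart. In unstressed zuo1Δ, mRNA stood at 260.2 ± 46.1 CPM per kb for RPA135 and 205 ± 121 for RPA190, but at 29.8 ± 12.6 for RPA43 and 27.8 ± 22.2 for RPA34 (mean ± SD, n = 2). In unstressed wild type, mRNA stood at 474 ± 277 CPM per kb for RPA135 and 375 ± 371 for RPA190, but at 90.1 ± 54.7 for RPA49, 19.8 ± 5.17 for RPA43 and 14.0 ± 5.51 for RPA34 (mean ± SD, n = 2). Over the 12 mRNA libraries the highest Pol I gene exceeded the lowest by 4.42 to 37.5 times. RPO31 mRNA exceeded RPC31 mRNA by 1.95 to 30.7 times, whereas their footprint ratio ran from 0.52 to 1.26. The log2 ratio of footprint to mRNA level in unstressed wild type was 3.70 for RPC31, 3.63 for RPA34 and 3.16 for RPA43, the 97.8th, 97.5th and 96.0th percentile of 5064 genes, whose median was 0.07. For RPO31 it was -1.61 and for RPA135 -1.01, the 13.0th and 23.5th percentile. In unstressed zuo1Δ, where the median was 0.25, it was 1.41 for RPC31 (84.0th percentile), 2.84 for RPA34 (97.6th) and 2.67 for RPA43 (96.7th). RPO31 had -0.53 and RPA135 -0.22 there, the 25.4th and 34.7th percentile. The mRNA spread between replicates was wide, with RPA190 at 563 and 3185 CPM in the unstressed wild-type replicates, 5.66-fold apart. RPC31, RPA34 and RPA43 have coding lengths of 756, 702 and 981 bases, and RPO31 and RPA135 of 4383 and 3612. Against each gene's mean over mRNA libraries, the longest 25% of genes had median log2 values of -0.34 and 0.21 in the unstressed wild-type replicates. These differences between genes, and the part of coding length in them, were not tested.

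**Figure D1:**
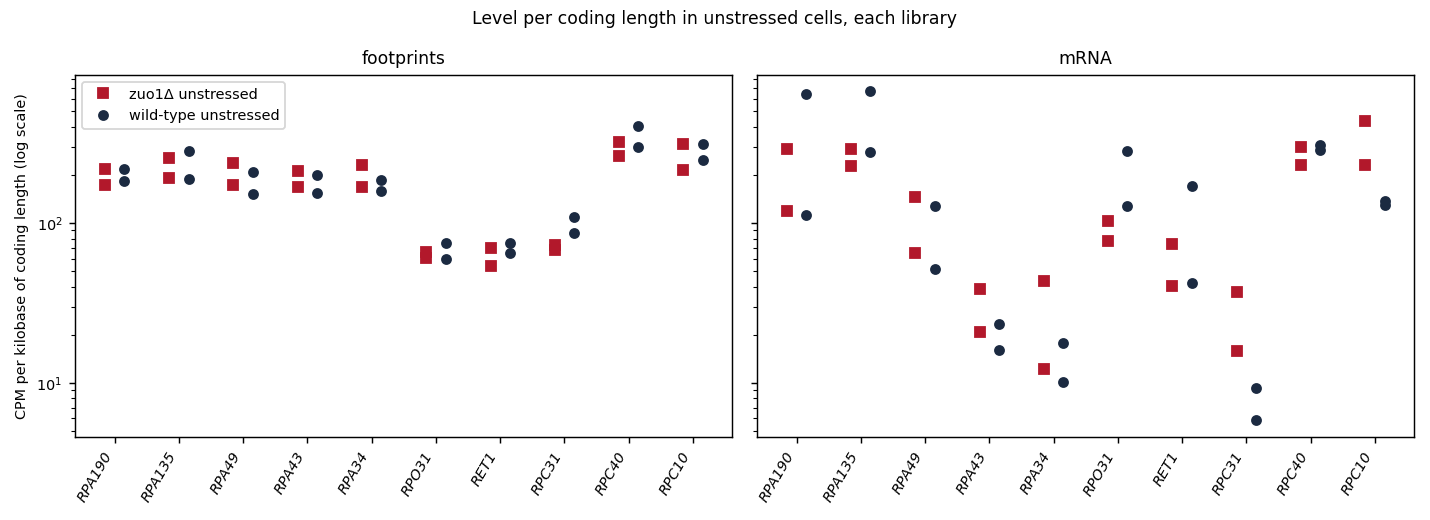
Level of each subunit gene in unstressed cells, in CPM per kilobase of coding length on a log axis, for footprints (left) and mRNA (right), 1 point per library, zuo1Δ squares left of wild-type circles. Footprints group by enzyme, with Pol III genes lowest, while mRNA levels of Pol I genes spread from RPA34 at 14.0 to RPA135 at 474 CPM per kb in wild type.

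Rpc40 enters both enzymes, so its footprint density was set beside the sum of the Pol I pair (mean of RPA190 and RPA135) and the Pol III pair (mean of RPO31 and RET1). This ratio, chosen after the values were seen, ran from 1.02 to 1.37 over the 12 footprint libraries and from 0.33 to 1.62 in mRNA. In wild type it was 1.36 ± 0.01 after H2O2 and 1.23 ± 0.03 without stress (mean ± SD, n = 2). RPC19, which encodes the partner of Rpc40 and is not a member, stood lower than RPC40. In unstressed wild-type footprints it had 143 and 193 CPM per kb, against 301 and 407 for RPC40 and 249 and 326 for the sum. In wild-type H2O2 footprints it had 137 and 146, against 181 and 200 for RPC40 and 134 and 146 for the sum. RPC10, set likewise beside the Pol I, Pol II and Pol III pairs together, had a median footprint ratio of 0.63. It reached 1.76 ± 0.16 in zuo1Δ heat and 0.95 ± 0.09 in the zuo1Δ libraries labelled H2O2, against 0.60 ± 0.11 in unstressed zuo1Δ (mean ± SD, n = 2 each). Corresponding ratios in wild type were 0.63 ± 0.03 in heat, 0.55 ± 0.01 in H2O2 and 0.59 ± 0.03 without stress. No test was made of these ratios.

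**Figure D2:**
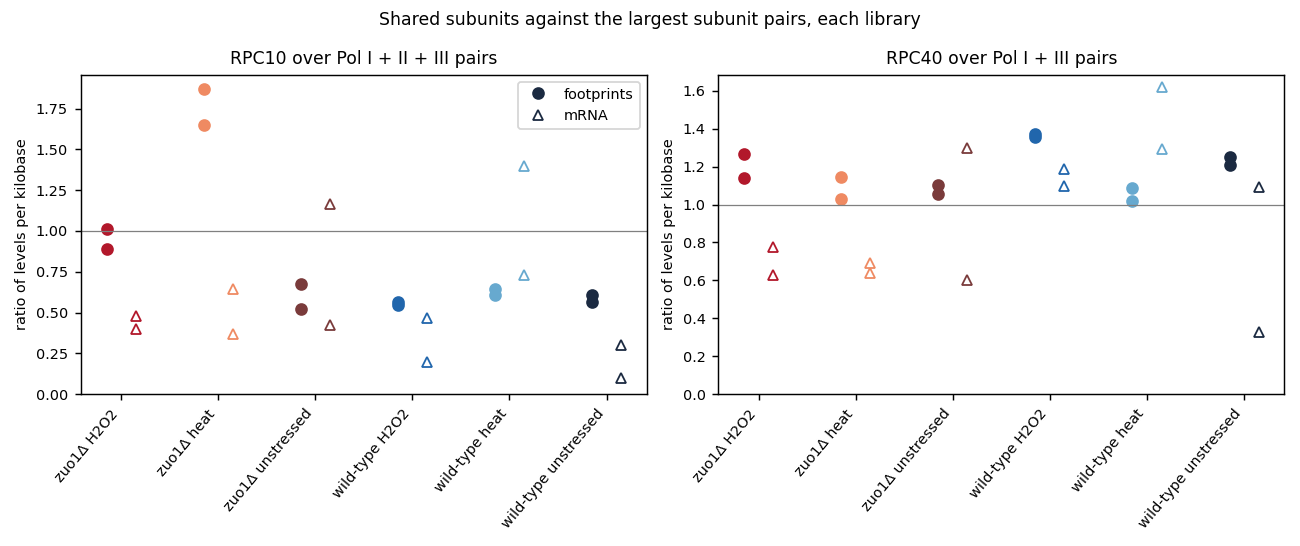
Shared subunits set against the pairs of largest subunits, as ratios of levels per kilobase, 1 point per library, footprints filled and mRNA open. The RPC10 ratio (left) is highest in zuo1Δ heat footprints, at 1.76 on average, and the RPC40 ratio (right) stays between 1.02 and 1.37 in every footprint library.

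The first question was whether H2O2 altered ribosome occupancy of these genes. In wild type, footprints fell for 8 of the 10 and rose for 0, whereas 8.79% of the 5064 genes tested fell. The median log2 fold change was -0.69 over the members and 0.05 over all genes. Footprint values are shares of a library, so they do not give the amount of footprints per cell. Passing means an adjusted p (Benjamini-Hochberg, all genes tested) under 0.05 in edgeR's quasi-likelihood test, and changes are given as log2 fold change ± SE.

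Among the Pol I subunits, RPA190 had 379 and 446 CPM in wild-type H2O2 footprints, against 922 and 1087 CPM in unstressed wild type. RPA135 had 397 and 399 CPM after H2O2, against 684 and 1024 CPM without stress. Neither gene's groups overlapped, and the log2 fold changes were -1.28 ± 0.18 (adjusted p = 0.0021) and -1.10 ± 0.19 (adjusted p = 0.0037). The stalk subunit RPA43 had 102 and 115 CPM after H2O2, against 150 and 196 CPM unstressed (-0.67 ± 0.21, adjusted p = 0.041). The heterodimer genes did not pass. RPA49 had 108 and 167 CPM after H2O2, against 188 and 261 CPM unstressed (-0.69 ± 0.25, adjusted p = 0.071). RPA34 had 72.3 and 84.0 CPM after H2O2, against 111 and 131 CPM unstressed (-0.63 ± 0.21, adjusted p = 0.052). For both, the stressed replicates still lay below the unstressed ones.

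All 3 Pol III genes fell. RPC31 had 34.7 and 27.8 CPM in wild-type H2O2 footprints, against 65.6 and 82.3 CPM in unstressed wild type (-1.27 ± 0.22, adjusted p = 0.0037). RPO31 had 175 and 203 CPM after H2O2, against 261 and 331 CPM (-0.64 ± 0.16, adjusted p = 0.015). RET1 had 144 and 156 CPM after H2O2, against 223 and 258 CPM (-0.68 ± 0.17, adjusted p = 0.017). The trimer subunit RPC31 thus changed by a larger fold, 2.41, than the active-site subunits of its enzyme, 1.56 and 1.60, though the difference between genes was not tested. The Pol I pair stood at 92.9 and 99.9 CPM per kb after H2O2, against 187 and 250 CPM per kb unstressed. With the Pol III pair beside it, their ratio was 2.23 ± 0.06 after H2O2 and 3.17 ± 0.23 unstressed (mean ± SD, n = 2 each), a ratio chosen after the values were seen.

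The shared subunits fell too. RPC40 had 182 and 202 CPM in wild-type H2O2 footprints, against 303 and 410 CPM in unstressed wild type (-0.89 ± 0.18, adjusted p = 0.0074). RPC10 had 39.0 and 37.9 CPM after H2O2, against 52.9 and 66.4 CPM (-0.64 ± 0.20, adjusted p = 0.047). All 10 members were lower in both H2O2 replicates than in either unstressed replicate. With replicate 1 of wild-type H2O2 left out the count of 8 became 3, with replicate 2 left out 5, and with unstressed replicate 2 left out 3. Scaling by library size alone gave 4 and shifted the median of all genes to 0.26, with 926 genes higher and 254 lower in place of 474 and 445.

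**Figure D3:**
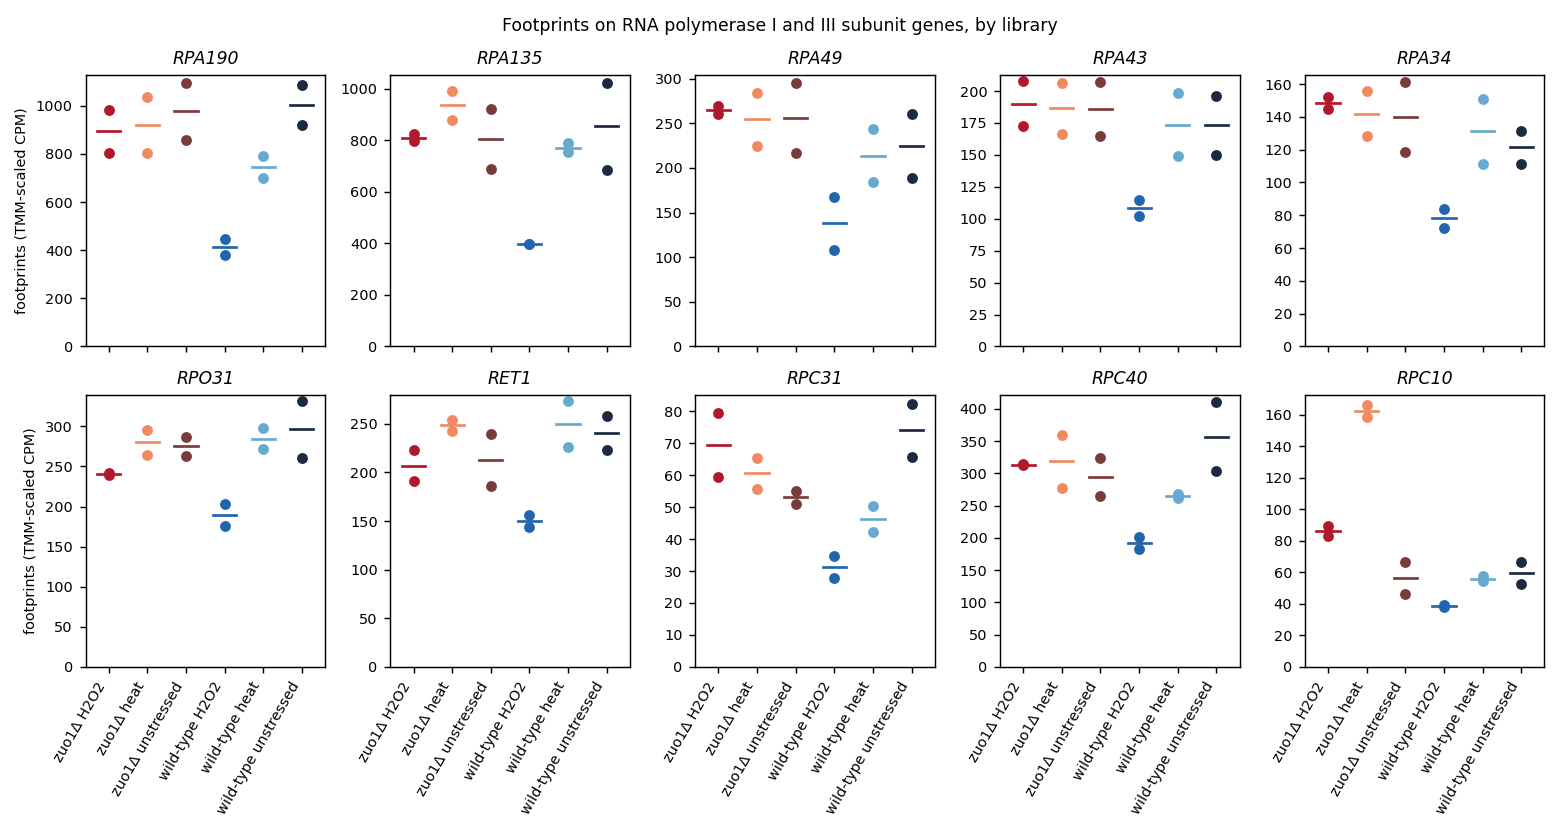
Footprints on each of the 10 genes as TMM-scaled CPM, 1 point per library and a line at each group mean, zuo1Δ groups left of wild-type groups. In wild-type H2O2 both points lie below the unstressed points for every gene, while RPC10 in zuo1Δ is highest in heat, at 166 and 159 CPM.

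The H2O2 footprints of zuo1Δ were next compared with those of wild type. Here 8 of the 10 genes were higher in zuo1Δ and 0 lower, whereas 9.34% of genes tested were higher. The median was 0.92 over the members and -0.00 over all genes. This comparison shares the wild-type H2O2 libraries with the one above, so the 2 counts are not independent.

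All 5 Pol I genes were higher in the zuo1Δ footprints labelled H2O2 than in the wild-type ones. RPA190 had 983 and 804 CPM in zuo1Δ, against 379 and 446 CPM in wild type (1.11 ± 0.18, adjusted p = 0.0033). RPA135 had 824 and 797 CPM in zuo1Δ, against 397 and 399 CPM in wild type (1.03 ± 0.19, adjusted p = 0.0055). The zuo1Δ level of both thus lay near that of unstressed cells. RPA49 had 269 and 260 CPM in zuo1Δ, against 108 and 167 CPM in wild type (0.93 ± 0.24, adjusted p = 0.021). RPA43 had 208 and 172 CPM in zuo1Δ, against 102 and 115 CPM (0.81 ± 0.20, adjusted p = 0.017). RPA34 had 152 and 145 CPM in zuo1Δ, against 72.3 and 84.0 CPM (0.92 ± 0.20, adjusted p = 0.011). None of these groups overlapped.

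Of the Pol III members, only the trimer subunit passed, while Pol III subunits outside the members that passed are given below. RPC31 had 79.5 and 59.4 CPM in the zuo1Δ footprints labelled H2O2, against 34.7 and 27.8 CPM in wild type (1.18 ± 0.20, adjusted p = 0.0044). RPO31 had 242 and 240 CPM in zuo1Δ, against 175 and 203 CPM (0.35 ± 0.15, adjusted p = 0.13). RET1 had 223 and 191 CPM in zuo1Δ, against 144 and 156 CPM (0.47 ± 0.17, adjusted p = 0.070). Both were higher in each zuo1Δ replicate without passing. The Pol I to Pol III pair ratio was 3.51 ± 0.06 in zuo1Δ H2O2 and 2.23 ± 0.06 in wild-type H2O2 (mean ± SD, n = 2 each). RPC40 was higher, with 313 and 314 CPM in zuo1Δ, against 182 and 202 CPM in wild type (0.71 ± 0.18, adjusted p = 0.019). RPC10 had 83.1 and 89.3 CPM in zuo1Δ, against 39.0 and 37.9 CPM (1.16 ± 0.19, adjusted p = 0.0031).

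The 2 zuo1Δ libraries labelled H2O2 differed by 1.00 times for RPC40, the closest member, to 1.34 times for RPC31. Without replicate 1 of the zuo1Δ footprints labelled H2O2, 5 members passed, among 250.0 genes higher and 165 lower: RPA190 (0.99, adjusted p = 0.014), RPA135 (1.03, adjusted p = 0.018), RPA34 (0.91, adjusted p = 0.039), RPC31 (0.98, adjusted p = 0.027) and RPC10 (1.25, adjusted p = 0.010). When either wild-type H2O2 replicate was left out, 3 passed. By library size alone, 815 genes were higher and 323 lower, in place of 473 and 490, and the median of all genes was 0.15.

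Within zuo1Δ, the libraries labelled H2O2 were compared with unstressed ones. Neither a member nor any other gene passed (0% of 5064), while 1 member, RPC10, and 444 genes had an unadjusted p under 0.05. DESeq2 called 27 genes and 0 members. Log2 changes of the members ran from -0.19 ± 0.15 for RPO31 to 0.62 ± 0.18 for RPC10 (adjusted p = 0.39), with a median of 0.04. RPC10 had 83.1 and 89.3 CPM in the libraries labelled H2O2, against 46.0 and 66.8 CPM in unstressed zuo1Δ. RPC31 had 79.5 and 59.4 CPM, against 51.0 and 55.2 CPM unstressed (0.40 ± 0.20). These 2 genes were higher in both replicates labelled H2O2 than in either unstressed one. RPA190 had 983 and 804 CPM, against 859 and 1094 CPM unstressed, and its groups overlapped. Replicate 1 labelled H2O2 is the doubted library, and its part in the lack of calls over all genes was not tested. Without it, 119 genes were higher and 65 lower, with 0 members among them. Members then ran from -0.24 ± 0.20 for RPA190 to 0.71 ± 0.22 for RPC10 (adjusted p = 0.11), and RPC31 had 0.20 ± 0.22.

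Whether the H2O2 response differed between the genotypes was tested by their interaction. All 10 values were positive, with a median of 0.86 (-0.04 over all genes), and 2 of the 10 passed, whereas 0.889% of genes passed in that direction. The 2 were RPC31 (1.66 ± 0.29, adjusted p = 0.033) and RPC10 (1.26 ± 0.27, adjusted p = 0.0499). RPA190 (1.16 ± 0.26, adjusted p = 0.051), RPA135 (1.11 ± 0.27, adjusted p = 0.060) and RPC40 (0.98 ± 0.25, adjusted p = 0.075) lay just outside the threshold. The remaining 5 ran from 0.45 for RPO31 to 0.74 for RPA49, at adjusted p = 0.15 to 0.26. Without replicate 1 of the zuo1Δ footprints labelled H2O2, 0 members passed, among 17 genes higher and 3 lower, at 1.503 for RPC31 (adjusted p = 0.057) and 1.38 for RPC10 (adjusted p = 0.064). It was also 0 without either wild-type H2O2 replicate, wild-type unstressed replicate 2 or zuo1Δ unstressed replicate 1. A count of 5 was reached without wild-type unstressed replicate 1, zuo1Δ H2O2 replicate 2 or zuo1Δ unstressed replicate 2.

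**Figure D4:**
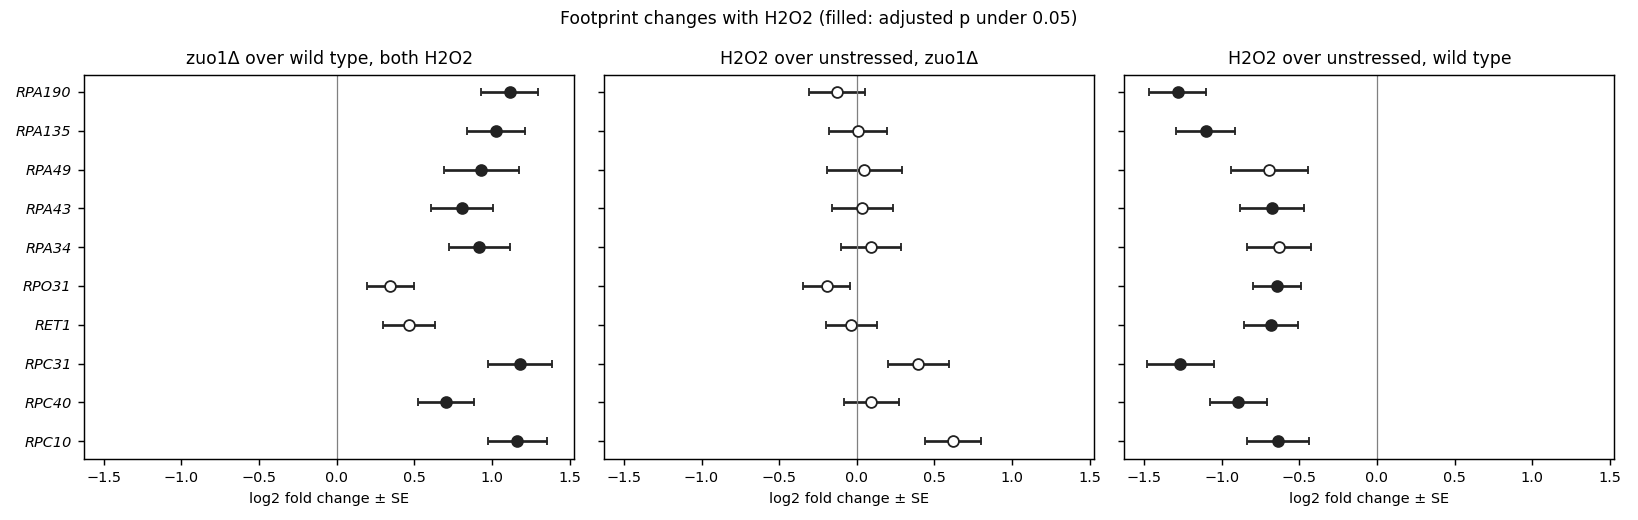
Log2 fold change ± SE of footprints for each gene, in zuo1Δ over wild type with both in H2O2 (left), H2O2 over unstressed in zuo1Δ (middle) and H2O2 over unstressed in wild type (right), filled where adjusted p was under 0.05. All 10 genes lie above 0 on the left and below 0 on the right, and those in the middle lie between -0.19 and 0.62.

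Heat gave another picture. In wild type 0 of the 10 members passed, against 9.81% of genes changed in either direction. An unadjusted p under 0.05 was found for 3 members and for 1308 of 5064 genes. DESeq2 called 1 member, and 186 genes higher and 431 lower. RPC31 had 50.2 and 42.2 CPM in wild-type heat footprints, against 65.6 and 82.3 CPM in unstressed wild type (-0.69 ± 0.22, adjusted p = 0.063). RPA190 had 700.3 and 791 CPM in heat, against 922 and 1087 CPM unstressed (-0.43 ± 0.18, adjusted p = 0.16). RPC40 had 269 and 263 CPM in heat, against 303 and 410 CPM unstressed (-0.43 ± 0.18, adjusted p = 0.17). In all 3 the heat replicates lay below the unstressed ones. The remaining 7 ranged from -0.15 for RPA135 to 0.12 for RPA34.

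In zuo1Δ heat, RPC10 was the 1 member of 10 that rose and 0 fell, whereas 5.61% of genes rose. RPC10 had 166 and 159 CPM in zuo1Δ heat footprints, against 46.0 and 66.8 CPM in unstressed zuo1Δ (1.54 ± 0.19, adjusted p = 0.00091). Against wild-type heat, at 57.6 and 54.5 CPM, the same 2 zuo1Δ libraries were higher by 1.54 ± 0.19 (adjusted p = 0.0012), and 2.86% of genes were higher. The heat interaction of RPC10 was 1.63 ± 0.27 (adjusted p = 0.024), and 0.612% of genes passed in that direction. RPC10 held 529 and 308 reads in the zuo1Δ heat libraries, against 125 and 354 reads in the wild-type ones. Both RPC10 comparisons within zuo1Δ and in heat passed in each of their 11 alternatives. The interaction did not pass without either wild-type heat replicate, wild-type unstressed replicate 2 or zuo1Δ unstressed replicate 1 (values 1.38 to 1.94 over all alternatives). RPC10 overlaps no annotated gene (chromosome VIII, positions 387233 to 387445 in build R64), and the strand setting of the counting is not given in the sources used here.

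The other 9 members in zuo1Δ heat lay between -0.09 for RPA190 and 0.23 for RET1 relative to unstressed zuo1Δ, at adjusted p of at least 0.40. Relative to wild-type heat they lay between -0.03 for RPO31 and 0.40 for RPC31, at adjusted p of at least 0.29. RPC31 had 55.6 and 65.5 CPM in zuo1Δ heat, against 50.2 and 42.2 CPM in wild-type heat. RPC40 had 277 and 360 CPM in zuo1Δ heat, against 269 and 263 CPM in wild-type heat, and neither gene's groups overlapped.

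Without stress, footprints of the 10 genes did not pass between zuo1Δ and wild type (0 of 10, against 4.82% of genes in either direction). An unadjusted p under 0.05 was found for 1 member and for 1017 of 5064 genes. DESeq2 called 0 members, and 116 genes higher and 250 lower. Log2 values ran from -0.48 ± 0.21 for RPC31 (adjusted p = 0.22) to 0.20 ± 0.20 for RPA34. RPC31 had 51.0 and 55.2 CPM in unstressed zuo1Δ, against 65.6 and 82.3 CPM in unstressed wild type, with no overlap. Values of RPA190, at 859 and 1094 CPM in zuo1Δ against 922 and 1087 CPM in wild type, overlapped.

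In mRNA, members passed in 1 of 9 comparisons, zuo1Δ against wild type in heat. There 4 of the 10 were higher and 0 lower, whereas 16.3% of genes were higher. They were RPC31 (2.35 ± 0.58, adjusted p = 0.011), RPA34 (2.12 ± 0.54, adjusted p = 0.012), RPA43 (1.44 ± 0.39, adjusted p = 0.015) and RPA49 (1.28 ± 0.48, adjusted p = 0.049). RPC31 mRNA had 19.5 and 32.8 CPM in zuo1Δ heat, against 3.82 and 6.83 CPM in wild-type heat. RPA34 mRNA had 22.8 and 38.5 CPM in zuo1Δ heat, against 7.38 and 6.68 CPM in wild-type heat. Neither gene's groups overlapped. RPC10 mRNA had 39.7 and 58.2 CPM in zuo1Δ heat, against 45.6 and 95.2 CPM in wild-type heat (-0.52 ± 0.48, adjusted p = 0.39), and its groups overlapped.

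The 50 most abundant genes took 19.98 to 21.55% of reads in the zuo1Δ heat mRNA libraries and 40.97 to 61.66% in the wild-type ones. In the same comparison the median log2 change was -0.50 among the shortest 25% of genes (coding length up to 810 bases) and 0.63 among the longest 25%, and the part of either in these calls was not tested. Leaving out the zuo1Δ mRNA library labelled heat replicate 1 gave 3 members, and leaving out all 3 doubted libraries gave 0 (RPC31 2.67 and RPA34 2.44, each at adjusted p = 0.061), in a fit where 0 of all genes passed in place of 826 higher and 1066 lower. The count was 0 without wild-type heat replicate 1, 2 without wild-type heat replicate 2 and 0 without zuo1Δ heat replicate 2. Library size alone gave 8, with 2940 genes higher and 181 lower in place of 826 and 1066, and a median of all genes of 1.56.

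The other mRNA comparisons called 0 members. Of all genes, 2.66% passed for H2O2 and 0.69% for heat in wild type, 0.0394% for H2O2 and 0% for heat in zuo1Δ, and 0.276% between genotypes both in H2O2 and without stress. Unadjusted p-values under 0.05 were found for 4, 5, 0, 0, 4 and 3 members in that order. Of all 5070 genes, 1153, 1297, 481, 517, 1403 and 1217 had them. DESeq2 called 3, 4, 0, 0, 2 and 2 members. Over all genes it called 231, 258, 8, 2, 235 and 227 higher and 365, 388, 79, 64, 402 and 383 lower. In wild-type H2O2 the mRNA of 9 members had negative values, from -2.00 ± 0.69 for RPA190 (adjusted p = 0.12) to -0.00 for RPC31, and RPC10 had 0.08. RPA190 mRNA had 441 and 497 CPM in wild-type H2O2, against 563 and 3185 CPM unstressed, and 1 unstressed library thus stood far above the other 3. The Pol III gene RPO31 had 356 and 308 CPM in wild-type H2O2, against 561 and 1245 CPM unstressed (-1.44 ± 0.46, adjusted p = 0.099). The SE of the mRNA values in this comparison, 0.36 to 0.69, exceeded those of the footprints, 0.16 to 0.25. Between genotypes, RPC31 mRNA was the furthest apart of the members without stress, at 11.99 and 28.0 CPM in zuo1Δ, against 4.41 and 6.99 CPM in wild type (1.81 ± 0.55, adjusted p = 0.085). RPC10 mRNA had 92.4 and 49.1 CPM in unstressed zuo1Δ, against 29.1 and 27.5 CPM in unstressed wild type (1.32 ± 0.48, adjusted p = 0.13). RPO31 mRNA had 339.8 and 452 CPM in unstressed zuo1Δ, against 561 and 1245 CPM in unstressed wild type (-1.19 ± 0.46, adjusted p = 0.14). These groups did not overlap, and the first 2 genes had higher and RPO31 lower values in zuo1Δ. In H2O2, RPA34 mRNA had 30.6 and 18.0 CPM in the zuo1Δ libraries, against 7.83 and 8.00 CPM in wild type (1.62 ± 0.52, adjusted p = 0.11). RPA49 mRNA had 148 and 154 CPM in zuo1Δ, against 53.4 and 65.4 CPM in wild type (1.35 ± 0.48, adjusted p = 0.12). Both stood higher in each zuo1Δ library, one of which is the doubted mRNA library labelled H2O2 replicate 2. Without that library RPA34 had 1.95 ± 0.61 (adjusted p = 0.30) and RPA49 1.32 ± 0.62 (adjusted p = 0.31). In all mRNA comparisons other than the one in heat between genotypes, 0 members passed without the doubted libraries as well. Neither mRNA interaction passed for any gene in edgeR (0% of genes in both), with 325 genes and 0 members at an unadjusted p under 0.05 for H2O2 and 891 genes and 3 members for heat, and DESeq2 called 0 members in both.

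**Figure D5:**
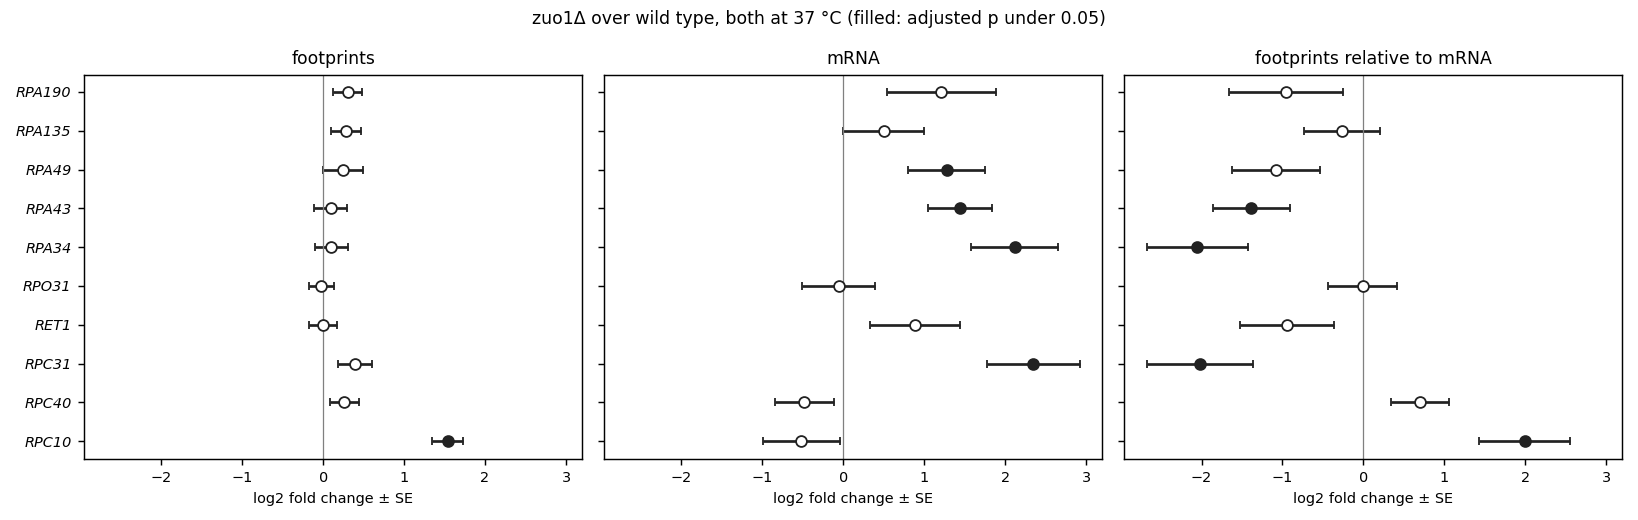
Log2 fold change ± SE of zuo1Δ over wild type, both in heat, for footprints (left), mRNA (middle) and footprints relative to mRNA (right), filled where adjusted p was under 0.05. RPC10 alone passed in footprints, at 1.54, while RPA49, RPA43, RPA34 and RPC31 passed in mRNA, at 1.28 to 2.35.

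Footprints relative to mRNA (translational efficiency) were tested in 1 model of both assays. In zuo1Δ against wild type in heat, efficiency was higher for 1 member and lower for 3, whereas 15.5% of genes were higher and 13.5% lower. RPC10 was higher (1.99 ± 0.56, adjusted p = 0.017), and RPA34 (-2.05 ± 0.62, adjusted p = 0.023), RPC31 (-2.02 ± 0.66, adjusted p = 0.030) and RPA43 (-1.38 ± 0.47, adjusted p = 0.036) were lower. For these 3 genes the footprints alone differed by 0.09 to 0.40 and the mRNA by 1.44 to 2.35. Over all genes, the median efficiency change here was 0.54 for coding lengths up to 810 bases and -0.80 for those above 1956 bases. RPC10 (213 bases), RPA34 (702) and RPC31 (756) belong to the shorter set, and of them only RPC10 changed in the direction of its median. The part of coding length in these calls was not tested. Without the 3 doubted libraries RPC10 no longer passed (1.83, adjusted p = 0.056) and the 3 lower ones did. Leaving out 1 library gave 0 members without zuo1Δ heat footprint replicate 1 or wild-type heat footprint replicate 2, and 1 without zuo1Δ heat mRNA replicate 2 or wild-type heat mRNA replicate 1. It gave 2 without zuo1Δ heat footprint replicate 2, wild-type heat footprint replicate 1 or wild-type heat mRNA replicate 2, and 3 without zuo1Δ heat mRNA replicate 1. By library size alone 0 members were higher and 6 lower, with 185 genes higher and 2330.0 lower in place of 788 and 686, and a median of all genes of -1.40. In the other 6 efficiency comparisons 0 members passed, where 0.0394% of genes passed between genotypes without stress, 0.0986% for wild-type heat and 0% in each of the other 4, with 1 to 4 at an unadjusted p under 0.05, and DESeq2 called 1 member without stress and 0 elsewhere.

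Other genes of the same machinery were taken from 3 lists. Of 14 other Pol I and Pol III subunits, 9 were higher and 0 lower in footprints of zuo1Δ against wild type in H2O2 (median 0.65). All 14 had positive values, and 9.34% of all genes were higher. The count of 9 was lower when any library of this comparison was left out. The largest were the Pol III subunits RPC53 (0.91 ± 0.24, adjusted p = 0.021), RPC82 (0.79 ± 0.18, adjusted p = 0.013), RPC25 (0.78 ± 0.23, adjusted p = 0.033) and RPC17 (0.72 ± 0.23, adjusted p = 0.046). RPC82, a partner of RPC31, had 108 and 110 CPM in zuo1Δ H2O2, against 59.98 and 65.8 CPM in wild-type H2O2. Without the 3 doubted libraries 2 of the 14 passed. In wild-type H2O2 against unstressed, 3 of the 14 fell and 0 rose (median -0.39), whereas 8.79% of all genes fell. The 3 were RPC25 (-1.02 ± 0.25, adjusted p = 0.014), RPB8 (-0.87 ± 0.20, adjusted p = 0.011) and RPC82 (-0.82 ± 0.19, adjusted p = 0.012). Their count was lower without either wild-type H2O2 replicate or unstressed replicate 2, and higher without unstressed replicate 1. RPB8 is shared by all nuclear RNA polymerases.

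Transcription factors of Pol I and Pol III (19 genes) were tested likewise. Against wild type in H2O2, 2 were higher in zuo1Δ footprints and 0 lower (median 0.30), and fewer passed without the 3 doubted libraries. Of all genes 9.34% were higher in this comparison. BDP1, a TFIIIB subunit, was higher by 1.01 ± 0.18 (adjusted p = 0.0054), and PZF1, which encodes the 5S gene factor TFIIIA, by 0.92 ± 0.23 (adjusted p = 0.017). BDP1 had 43.0 and 45.1 CPM in wild-type H2O2 and 47.3 and 47.1 CPM in unstressed wild type, and 0 of the 19 passed in that comparison (median 0.00). An unadjusted p under 0.05 was found there for 1 factor and for 1660 of 5064 genes. DESeq2 called 1 factor, and 473 genes higher and 565 lower. In zuo1Δ heat against unstressed zuo1Δ, 3 fell and 0 rose: RRN5 (-1.46 ± 0.43, adjusted p = 0.048), TFC8 (-1.04 ± 0.22, adjusted p = 0.015) and RRN3 (-0.61 ± 0.18, adjusted p = 0.048), the last encoding the Pol I initiation factor. Of all genes 6.26% fell in this comparison, and without the doubted libraries 2 of the 19 factors fell.

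Of 7 Pol II-specific subunits, 0 passed in footprints in either H2O2 comparison, with medians of 0.04 for zuo1Δ against wild type and -0.10 for wild-type H2O2 against unstressed. In each, 1 had an unadjusted p under 0.05 and 0 were called by DESeq2. Of all 5064 genes, 1740 and 1660 had an unadjusted p under 0.05 in that order. RPB3, the Pol II counterpart of RPC40, fell in zuo1Δ heat against unstressed zuo1Δ (-0.52 ± 0.14, adjusted p = 0.032). It was the 1 of the 7 that passed there, whereas 6.26% of all genes fell. That the Pol II list differed from the Pol I and Pol III genes was not tested. In mRNA of zuo1Δ against wild type in heat, 3 of the 14 other subunits were higher and 2 lower. Of the 19 factors 5 were higher and 1 lower, and of the 7 Pol II genes 1 was lower. Over all genes, 16.3% were higher and 21% lower. Without the doubted libraries no gene of the 3 lists passed. The largest there were RPA14 (-2.61 ± 0.53, adjusted p = 0.0081) among subunits and RRN5 (-2.45 ± 0.49, adjusted p = 0.0081) among factors.

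As a description across the 12 footprint libraries, which share their 6 conditions and normalization, the members' log2 levels ran together. The correlation of each with the mean of the other 9 was 0.98 for RPA135, 0.93 for RPA190 and RPA43, 0.81 to 0.92 for RPA49, RPA34, RPO31, RET1, RPC31 and RPC40, and 0.63 for RPC10. Among 4610 other genes, those most like the members' mean profile over these libraries were TRM1 (r = 0.99), RRP5 (r = 0.98), BCP1 (r = 0.97), UTP20 (r = 0.96) and GUA1 (r = 0.96). The median over the 4610 was -0.01.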

How the data were processed

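The deposited table holds raw counts of reads per gene, made by the authors from mRNA and footprint libraries. The submitters' processing notes name cutadapt, Bowtie2, HISAT2, SAMtools and build R64. Tool versions and roles, the counting program and its strand setting were not given in the sources used here. RefSeq's R64 gene table, matched by 5198 of 5211 identifiers, gave symbols, coordinates and coding lengths. Left out were 3 emptied lines and genes at 0 throughout 1 genotype (54 in zuo1Δ, 87 in wild type), so 5070 genes remained. No label names molecular identifiers, so reads need not be independent molecules.

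edgeR 4.0.16 (R 4.3.3, limma 3.58.1) was run with TMM factors and filterByExpr (minimum count 10, minimum total 15). One quasi-likelihood model per assay held its 12 libraries, and one for translational efficiency held all 24. There were 9 comparisons per assay and 7 for efficiency, with Benjamini-Hochberg adjustment over all genes in each. The SE was derived from the log2 fold change and its F statistic. The biological coefficient of variation was 0.170 for footprints and 0.318 for mRNA, and log2 replicate differences had an SD of 0.315 to 0.525 and 0.56 to 0.852. Each edgeR model was also run on counts simulated from its own mean levels and spread. Those runs held no interaction and no doubted labels, so they do not test the calls reported here.

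All 10 members are named, as are up to 4 genes per list that passed with the largest change. The 5 genes of most alike profile had a mean of at least 10 CPM and the highest r with the members' mean log2 CPM (prior count 2). Members, lists and doubted libraries were chosen with earlier results of these data known. The stress markers of 1 condition were its 100 largest rises in wild-type footprints, less those shared with the other stress. Alternatives were DESeq2 1.42.0, a replicate block, RLE factors, scaling by library size alone, no filter, a fit of only the groups compared, and fits without each library in turn or without the 3 doubted ones. Auxotrophic markers of the strain were not analysed here.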

Additional observations from a re-analysis of the deposited data

Results flagged for a closer look

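The response of RPC31 footprints to H2O2 differed between zuo1Δ and wild type in the test of the interaction (log2 1.66, adjusted p = 0.033). Footprints of RPC10 differed likewise for H2O2 (1.26, adjusted p = 0.0499) and for heat (1.63, adjusted p = 0.024). Over the alternatives the values ran from 1.49 to 1.90 for RPC31 (adjusted p = 0.00017 to 0.16), from 1.00 to 1.60 for RPC10 in H2O2 (adjusted p = 0.0049 to 0.21) and from 1.38 to 1.94 for RPC10 in heat (adjusted p = 3.07e-05 to 0.13). Groups of 2 replicates allowed no search for a single library far from the others.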

How the results depend on the processing

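Over the values of single members, 410 alternatives left direction and call as reported, 92 lost the call, 31 gained it and 0 changed sign. Counts of members that passed and moved were as follows. In footprints, the H2O2 interaction count was 5 with DESeq2, 5 with the replicate block, 1 with library size alone, 1 with no filter, 0 with only the groups compared, 0 without the 3 doubted libraries and 0 to 5 leaving out 1 library. The wild-type H2O2 count was 4 with library size alone and 3 to 9 leaving out 1 library, and zuo1Δ against wild type in H2O2 gave 5 without the doubted libraries and 3 to 9 leaving out 1. Wild-type heat gave 1 with DESeq2, 1 with RLE factors and 1 without the doubted libraries, and the heat interaction 0 to 1 leaving out 1 library. In mRNA, DESeq2 gave 3 for wild-type H2O2, 4 for wild-type heat, 2 for zuo1Δ against wild type in H2O2 and 2 without stress. Library size alone gave 8 for zuo1Δ against wild type in heat and 6 without stress, only the groups compared gave 4 in H2O2, and heat gave 0 without the doubted libraries. The replicate block gave 3 in H2O2 and 1 without stress. Over all genes in H2O2, only the groups compared called 451 higher and 490 lower, in place of 7 and 7. The block called 308 higher and 325 lower there. Without stress it called 190 higher and 282 lower, in place of 5 and 9. Leaving out 1 library gave 0 to 1 for wild-type H2O2, 0 to 4 for wild-type heat, 0 to 2 for the heat interaction and, for zuo1Δ against wild type, 0 to 3 in heat and 0 to 2 without stress. In efficiency, zuo1Δ against wild type without stress gave 1 with DESeq2, 2 with library size alone and 0 to 2 leaving out 1 library. Leaving out 1 gave 0 to 4 for wild-type heat, 0 to 1 for zuo1Δ heat and 0 to 3 for zuo1Δ against wild type in heat. Calls over all genes moved too. For the footprint H2O2 interaction, DESeq2 called 191 higher and 133 lower, in place of 45 and 24. The block called 132 and 84, no filter 29 and 20, and only the groups compared 6 and 3. For wild-type heat footprints, DESeq2 called 186 and 431 and RLE factors 160 and 395, in place of 179 and 318. For efficiency between genotypes without stress, DESeq2 called 62 and 71, in place of 0 and 2. The causes were not tested. Replicates share only a number: same-numbered deviations correlated at -0.07 to 0.35 in footprints and -0.33 to 0.78 in mRNA, over 0.1 in 6 and 9 of 15 pairs of groups, and the block changed no other count by over 1.5 times. With library size alone, medians of all genes lay at -0.14 to 0.33 in footprints, -0.76 to 1.56 in mRNA and -1.40 to -0.11 in efficiency. Splits of all genes into higher and lower then were, in mRNA, 2984 and 38 for zuo1Δ against wild type without stress in place of 5 and 9, 1560.0 and 21 for wild-type H2O2 in place of 73 and 62, and 44 and 9 for wild-type heat in place of 20 and 15; in efficiency, 8 and 818 for zuo1Δ against wild type without stress in place of 0 and 2; and in footprints, 402 and 86 for zuo1Δ against wild type without stress in place of 90.0 and 154, 291 and 107 in heat in place of 145 and 183, 655 and 164 for wild-type heat in place of 179 and 318, 512 and 159 for zuo1Δ heat in place of 284 and 317, and for the H2O2 and heat interactions 18 and 29 in place of 45 and 24 and 21 and 28 in place of 31 and 21. With 2 replicates a group, the SE of mRNA differences (0.36 to 0.67 for zuo1Δ against wild type) limits what could be resolved.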
